A study of Homo sapiens with 6 samples.

Results

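The genes described here are 10 members of the BCL2 family, which controls the intrinsic pathway of apoptosis. They were taken by symbol from the 35322 gene symbols of the series. They comprised 4 anti-apoptotic members, BCL2, BCL2L1 (BCL-XL), BCL2L2 (BCL-W) and MCL1, and 6 pro-apoptotic members. The latter were the effector BAK1 and the BH3-only genes BCL2L11 (BIM), BID, BAD, BIK and BMF. RNA was sequenced from 22Rv1 cells, an established human prostate carcinoma line, in 3 groups of 2 libraries. The groups were control cells, whose genotype is labelled WT, and ZM11-kd1 and ZM11-kd2, both of which carry a knockdown of ZMYND11, a reader of histone marks. All 3 groups were kept in RPMI1640 with 10% fetal bovine serum and are labelled as untreated, so the arsenite stress used elsewhere in the study is not part of these libraries. The study's methods describe stable knockdown with lentiviral hairpins in pLKO.1 under puromycin selection. The labels do not say which hairpin either knockdown carried. A figure legend of the study describes the control cells sequenced as expressing control hairpins, which differs from their WT label.

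At the outer mitochondrial membrane, BAK1 can assemble into pores that release cytochrome c. The anti-apoptotic members hold BH3-only proteins, and some of them also BAK1, in a groove on their surface. The BH3-only proteins compete for that groove or activate the effectors directly. Because each anti-apoptotic protein binds its own selection of BH3-only partners, cancer cells, including prostate cancer cells, are often described by which of these proteins they make. RNA levels do not give the protein levels, the phosphorylation or the binding on which this control also rests.

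The element that these proteins share is the BH3 domain, so the coding sequence of its core is shown for each member. It was found in each canonical protein as the single match to a pattern of residues. The pattern was leucine or methionine, then arginine, alanine or glutamine, then 2 residues of any kind. Glycine, alanine or serine and then aspartate ended the core. The residue after the core had to be aspartate, glutamate, glycine, serine or glutamine. The 30 bases are given 5′ to 3′ on the coding strand of GRCh38, with 2 blocks in capitals. These are the codon of the first residue and the joined codons of the last 2 residues of the core.
BCL2: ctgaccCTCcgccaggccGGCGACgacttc
BCL2L1: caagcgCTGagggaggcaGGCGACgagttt
BCL2L2: caagccATGcgggcagctGGAGATgagttc
MCL1: gagaccTTAcgacgggttGGGGATggcgtg
BAK1: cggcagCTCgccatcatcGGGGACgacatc
BCL2L11: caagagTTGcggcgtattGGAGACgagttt
BID: aggcacCTCgcccaggtcGGGGACagcatg
BAD: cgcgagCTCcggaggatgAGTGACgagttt
BIK: ctgcggCTGgcctgcatcGGGGACgagatg
BMF: cgaaagCTTcagtgcattGCAGACcagttc
The stretches lie in coding exons, at chr18:63318355-63318384 (BCL2, minus strand), chr20:31721928-31721957 (BCL2L1, minus), chr14:23307897-23307926 (BCL2L2, plus), chr1:150578871-150578900 (MCL1, minus) and chr6:33575393-33575422 (BAK1, minus). Those of the BH3-only genes lie at chr2:111150097-111150126 (BCL2L11, plus), chr22:17739421-17739450 (BID, minus), chr11:64271628-64271657 (BAD, minus), chr22:43127710-43127739 (BIK, plus) and chr15:40104201-40104230 (BMF, minus). The core opens with a leucine codon in 9 genes and with methionine in BCL2L2. The residue before the aspartate is glycine in 8 genes, serine in BAD and alanine in BMF. The 10 proteins range from 160 residues in BIK to 350 in MCL1.

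The libraries held 26844128 to 38193748 counts, and 1 count corresponded to 0.0280 to 0.0338 normalized CPM, that is, counts per 1000000 of the TMM-scaled library total. Of all genes, 16510 passed the filter on low counts and were tested with edgeR's quasi-likelihood test, and a gene was called at a Benjamini-Hochberg adjusted p under 0.05. All 10 members passed the filter. ZMYND11 itself was at 141 and 135 CPM in the control libraries, 27.7 and 26.1 in ZM11-kd1 and 21.6 and 22.7 in ZM11-kd2. The log2 fold change of ZMYND11 was -2.35 in ZM11-kd1 and -2.64 in ZM11-kd2. Over 14 alternative fits it ranged from -2.71 to -1.71 in ZM11-kd1 and from -2.81 to -2.32 in ZM11-kd2. The prostate epithelial markers HOXB13, KRT8, KRT18 and EPCAM were each at 103.7 CPM or more in every library. Of 4 markers of other cell types, PTPRC, COL3A1 and PECAM1 summed to between 0.234 and 1.38 CPM in each library and were not at 0 in any. The fourth, COL1A1, was at 23.9 CPM in control cells, 74.5 in ZM11-kd1 and 31.2 in ZM11-kd2, and its part in the results was not tested. With COL1A1, the summed level of the 4 markers was 24.9 to 25.3 CPM in control cells, 74.8 to 75.4 in ZM11-kd1 and 30.6 to 32.6 in ZM11-kd2.

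To learn how loss of ZMYND11 related to the balance of the family, each knockdown was compared with the control cells. In ZM11-kd1, 8 members rose and 2 fell, with the scaling by library totals alone giving 7 and 3 because BCL2L2 then fell. Higher calls made up 38.2% of all genes tested and lower calls 39.8%. In ZM11-kd2, 8 members again rose and 2 fell, against 36.5% and 36.9% of all genes tested. The genes that fell in both were BCL2, the founding inhibitor of apoptosis, and BCL2L11, a BH3-only activator. Among members called with a change of at least 1.5-fold, 7 rose and 2 fell in ZM11-kd1 (background 28.6% and 31.2%), and 8 rose and 1 fell in ZM11-kd2 (background 23.8% and 27.3%). The number that rose by that much in ZM11-kd2 was 2 with library totals alone and 6 after a correction for GC and length. The median log2 fold change of the 10 members was 1.22 in ZM11-kd1 and 0.70 in ZM11-kd2, while that of all genes tested was -0.03 in both. Both comparisons use the same 2 control libraries, so the second is not an independent repeat of the first.

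In each knockdown, the libraries of all 10 members lay wholly above or wholly below both control libraries. That was also true of 89.7% of all genes tested in ZM11-kd1 and of 86.3% in ZM11-kd2, so the separation of the libraries is the usual state of a gene in this series. All tests rest on 3 residual degrees of freedom, and the labels do not say whether the libraries of a group came from separate cultures.

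**Figure D1:**
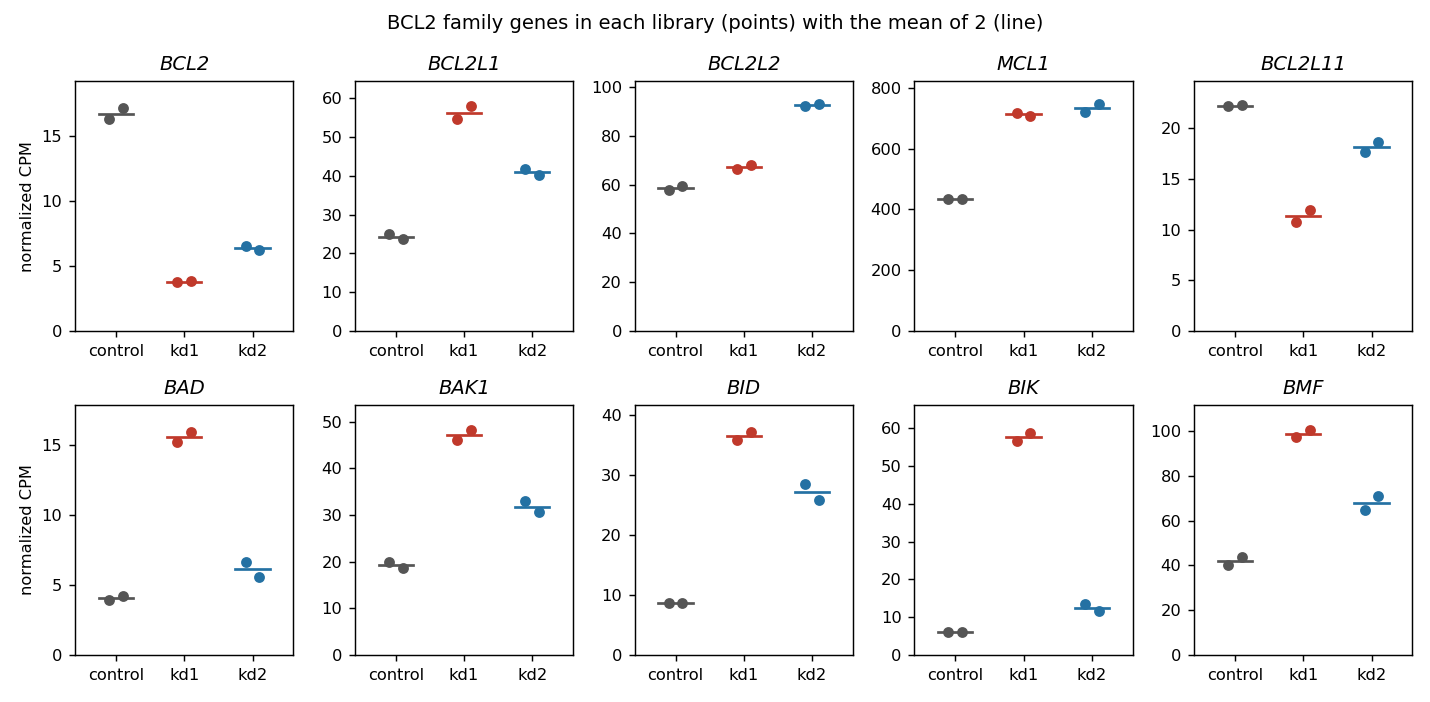
Normalized CPM (y axis, starting at 0 and scaled for each gene) of the 10 BCL2 family genes in control, ZM11-kd1 (kd1) and ZM11-kd2 (kd2) cells, with 1 point per library and a line at the mean of 2. BCL2 and BCL2L11 sit lower in the knockdowns than in control cells, the other 8 sit higher, and BIK at 56.6 and 58.7 CPM in kd1 lies farthest from its control libraries at 6.18 and 6.15.

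Among the anti-apoptotic members, BCL2 fell in both knockdowns while BCL2L1 and MCL1 rose in both. BCL2, the protein first found to block apoptosis, was at 16.3 and 17.2 CPM in the control libraries (497 and 533 counts), 3.80 and 3.85 in ZM11-kd1 (129 and 114 counts) and 6.58 and 6.25 in ZM11-kd2 (235 and 214 counts). The control libraries were the highest and the ZM11-kd1 libraries the lowest, with no overlap among the 3 groups. The log2 fold change of BCL2 was -2.13 in ZM11-kd1 (SE 0.127, adjusted p = 1.01e-09, edgeR) and -1.38 in ZM11-kd2 (SE 0.118, adjusted p = 7.62e-08, edgeR), leaving 0.228 and 0.383 of the control level. BCL2 has the longest exon sequence of the members, 12612 bases, and the lowest GC content, 43.3%. Correcting the fit for GC content and exon length moved its log2 fold change to -1.49 and -1.09, and it was still called.

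BCL2L1, whose main product BCL-XL holds BAK1 and several BH3-only proteins, was at 24.98 and 23.7 CPM in the control libraries, 54.5 and 57.9 in ZM11-kd1 and 41.6 and 40.1 in ZM11-kd2. Its order across the groups was the reverse of that of BCL2, again without overlap. BCL2L1 had a log2 fold change of 1.21 in ZM11-kd1 (SE 0.0719, adjusted p = 9.74e-10, edgeR) and 0.75 in ZM11-kd2 (SE 0.0724, adjusted p = 3.12e-07, edgeR). The counts do not separate BCL-XL from the pro-apoptotic splice form of the same gene, which was not analysed here.

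MCL1, a short-lived inhibitor that binds BCL2L11 and BAK1, was the most abundant member by far. It was at 434 and 436 CPM in the control libraries, 718 and 706 in ZM11-kd1 and 719 and 745 in ZM11-kd2. Both knockdowns lay above control cells and close to each other. MCL1 had a log2 fold change of 0.71 in ZM11-kd1 (SE 0.0491, adjusted p = 5.09e-09, edgeR) and 0.75 in ZM11-kd2 (SE 0.0491, adjusted p = 4.37e-09, edgeR). In ZM11-kd1 the size depended on the scaling, with 0.36 from library totals alone and 1.02 after the GC and length correction. The lncRNA ADAMTSL4-AS1, which shares 328 bases of exon with MCL1 on the same strand, had the same count as MCL1 in all 6 libraries, so the value of MCL1 is uncertain.

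BCL2L2 encodes BCL-W, another groove-bearing inhibitor. It was at 57.7 and 59.5 CPM in the control libraries, 66.5 and 68.0 in ZM11-kd1 and 92.1 and 93.0 in ZM11-kd2. The ZM11-kd2 libraries stood apart from the other 4, which lay between 57.7 and 68.0. In ZM11-kd2 the log2 fold change was 0.66 (SE 0.0571, adjusted p = 9.22e-08, edgeR). In ZM11-kd1 it was 0.20 (SE 0.0579, adjusted p = 0.00623, edgeR), which not every alternative kept. It turned to -0.16 with library totals alone (adjusted p = 0.0263, edgeR), a scaling that also moved the median of all genes to -0.38. It was not called after the GC and length correction (0.11, adjusted p = 0.0668, edgeR), without control replicate 1 (0.17, adjusted p = 0.0820, edgeR) or without ZM11-kd1 replicate 2 (0.19, adjusted p = 0.0528, edgeR). BCL2L2 shares exon sequence on the opposite strand with HOMEZ, whose log2 fold changes were 0.82 and 0.85, and PPP1R3E, at 0.00 and -0.82, and the strand setting of the counting is not given in the sources used here.

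BAK1, the effector that forms pores in the outer membrane, rose in both knockdowns. It was at 20.0 and 18.7 CPM in the control libraries, 46.0 and 48.2 in ZM11-kd1 and 32.9 and 30.6 in ZM11-kd2. No library of one group overlapped another group. For BAK1, the log2 fold change was 1.28 in ZM11-kd1 (SE 0.0785, adjusted p = 1.33e-09, edgeR) and 0.71 in ZM11-kd2 (SE 0.0795, adjusted p = 1.42e-06, edgeR). After the GC and length correction these were 0.48 and 0.52, still called but no longer larger in ZM11-kd1.

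The BH3-only genes did not move as one. BIK, BID, BAD and BMF rose in both knockdowns, whereas BCL2L11 fell in ZM11-kd1 and, less firmly, in ZM11-kd2. BIK, a BH3-only protein of the endoplasmic reticulum, showed the largest change of the 10 genes in ZM11-kd1. It was at 6.18 and 6.15 CPM in the control libraries (188 and 191 counts), 56.6 and 58.7 in ZM11-kd1 (1924 and 1739 counts) and 13.5 and 11.5 in ZM11-kd2 (482 and 395 counts). The 2 knockdowns were both above control cells but far from each other. The log2 fold change of BIK was 3.23 in ZM11-kd1 (SE 0.0991, adjusted p = 1.26e-12, edgeR), a 9.35-fold rise, and 1.02 in ZM11-kd2 (SE 0.108, adjusted p = 8.10e-07, edgeR), a 2.03-fold rise. After the GC and length correction these log2 fold changes were 2.41 and 0.83, both still called.

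BID, which caspase-8 cleaves into an active form and which so joins the death receptor pathway to mitochondria, showed the largest change in ZM11-kd2 under TMM, while with library totals alone BCL2 did (-1.56 against 1.48). It was at 8.61 and 8.69 CPM in the control libraries, 35.7 and 37.1 in ZM11-kd1 and 28.5 and 25.8 in ZM11-kd2. Both knockdowns were high, and the groups did not overlap. BID changed by a log2 fold of 2.07 in ZM11-kd1 (SE 0.0919, adjusted p = 4.12e-11, edgeR) and 1.65 in ZM11-kd2 (SE 0.0927, adjusted p = 8.55e-10, edgeR), 4.21-fold and 3.14-fold. BID moved little with the scaling, between 1.72 and 2.10 in ZM11-kd1 and between 1.48 and 1.72 in ZM11-kd2 over all 14 alternatives.

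BAD, a BH3-only protein that survival kinases phosphorylate and 14-3-3 proteins then hold away from mitochondria, was at 3.94 and 4.19 CPM in the control libraries (120 and 130 counts), 15.2 and 15.98 in ZM11-kd1 (518 and 473 counts) and 6.63 and 5.61 in ZM11-kd2 (237 and 192 counts). ZM11-kd1 was well above the other groups, and ZM11-kd2 only a little above control cells. The log2 fold change of BAD was 1.94 in ZM11-kd1 (SE 0.136, adjusted p = 6.07e-09, edgeR) and 0.59 in ZM11-kd2 (SE 0.146, adjusted p = 0.00216, edgeR). BAD has the highest GC content of the members, 64.7%, and the GC and length correction lowered its log2 fold change to 0.74 in ZM11-kd1 and 0.35 in ZM11-kd2. It also shares 404 bases of exon with GPR137 on the opposite strand, a gene with 692% of its counts, whose log2 fold change was 0.67 in ZM11-kd1 (adjusted p = 3.44e-07, edgeR) and 0.12 in ZM11-kd2 (adjusted p = 0.138, edgeR). Without a stated strand setting, reads of BAD and GPR137 cannot be told apart there.

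BMF, a BH3-only protein that is tethered to the actin-based motors of the cytoskeleton, was at 40.1 and 43.98 CPM in the control libraries, 97.2 and 101 in ZM11-kd1 and 64.9 and 71.03 in ZM11-kd2. The groups kept the order of BAK1, with ZM11-kd2 between the others. The rise of BMF was a log2 fold change of 1.23 in ZM11-kd1 (SE 0.0687, adjusted p = 4.60e-10, edgeR) and 0.69 in ZM11-kd2 (SE 0.0691, adjusted p = 4.23e-07, edgeR).

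BCL2L11 encodes BIM, which binds every anti-apoptotic member and can activate the effectors. It was at 22.1 and 22.2 CPM in the control libraries (674 and 691 counts), 10.7 and 11.9 in ZM11-kd1 (364 and 353 counts) and 17.7 and 18.6 in ZM11-kd2 (632 and 637 counts). The ZM11-kd1 libraries were about midway between 0 and the control libraries, and those of ZM11-kd2 lay just under control. BCL2L11 had a log2 fold change of -0.97 in ZM11-kd1 (SE 0.0971, adjusted p = 3.19e-07, edgeR) and -0.29 in ZM11-kd2 (SE 0.0922, adjusted p = 0.0108, edgeR). The ZM11-kd2 call was lost after the GC and length correction (-0.18, adjusted p = 0.0840, edgeR), without control replicate 1 (-0.30, adjusted p = 0.0536, edgeR) and without control replicate 2 (-0.29, adjusted p = 0.0618, edgeR), and it was -0.46 with library totals alone. In bulk RNA, a lower level in every cell and fewer cells with a high level cannot be told apart, for BCL2L11 as for the other members.

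**Figure D2:**
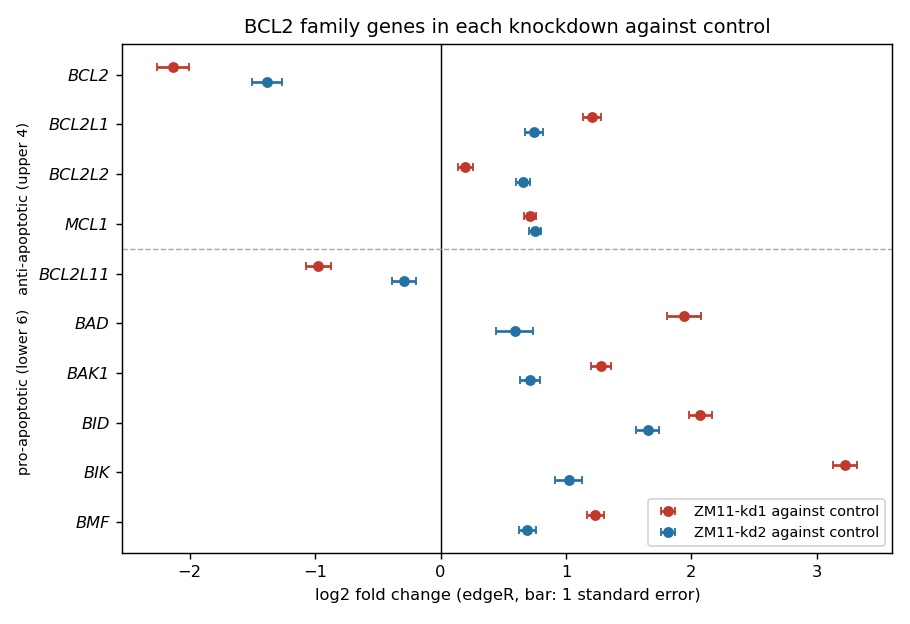
Log2 fold change against control (x axis) of each member in ZM11-kd1 (red) and ZM11-kd2 (blue) from edgeR, with bars of 1 standard error and anti-apoptotic genes above the dashed line. BCL2 and BCL2L11 lie left of 0 in both, and the other 8 lie right of 0, with BCL2L2 in ZM11-kd1 nearest to it at 0.20 and turning negative with library totals alone.

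The knockdowns were also compared with each other, ZM11-kd2 minus ZM11-kd1. Of the 10 members, 9 differed, 3 being higher in ZM11-kd2 (34.9% of all genes tested) and 6 lower (33.8%). With a difference of at least 1.5-fold, 2 were higher (background 21.9%) and 2 lower (background 22.8%), which became 3 and 2 with library totals alone and 0 and 1 after the GC and length correction. The median of the members was -0.44 and that of all genes 0.02. BIK differed most, with -2.20 (SE 0.0891, adjusted p = 5.90e-11, edgeR), followed by BAD with -1.35 (SE 0.127, adjusted p = 2.88e-07, edgeR). The log2 difference was -0.57 for BAK1, -0.54 for BMF, -0.46 for BCL2L1 and -0.42 for BID, all lower in ZM11-kd2. The 2 genes that fell in the knockdowns, BCL2 (0.75) and BCL2L11 (0.68), were higher in ZM11-kd2 than in ZM11-kd1. By the size of the log2 fold change, 8 members lay nearer to control cells in ZM11-kd2 than in ZM11-kd1 (also 8 after the GC and length correction, with MCL1 in place of BAK1), as did 60.3% of all genes tested (56.6% after that correction). ZMYND11 was lower in ZM11-kd2 by 0.28, which was 0.098 and not called with library totals alone and 0.61 after the correction. BCL2L2 went the other way, with 0.46 (SE 0.0566, adjusted p = 4.49e-06, edgeR). The libraries of the 2 knockdowns did not overlap for any of the 10 members, nor for 83.1% of all genes tested.

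MCL1 did not pass the test between the knockdowns, at 0.04 (SE 0.0487, adjusted p = 0.474, edgeR). With other scalings it was called in opposite directions, 0.23 with library totals alone (adjusted p = 0.000624, edgeR) and -0.17 after the GC and length correction (adjusted p = 0.00360, edgeR). That correction also took BAK1 to 0.04 (adjusted p = 0.655, edgeR), BCL2L1 to -0.11 (adjusted p = 0.133, edgeR), BAD to -0.39 and BCL2 to 0.40, the last of these with an adjusted p of 0.0201 (edgeR). BID (-0.24) and BMF (-0.36) were smallest with library totals alone. That scaling called 7065 of all genes higher and 4506 lower, where TMM gave 5767 and 5588, and in ZM11-kd1 against control it called 4596 higher and 8420 lower, where TMM gave 6310 and 6572.

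**Figure D3:**
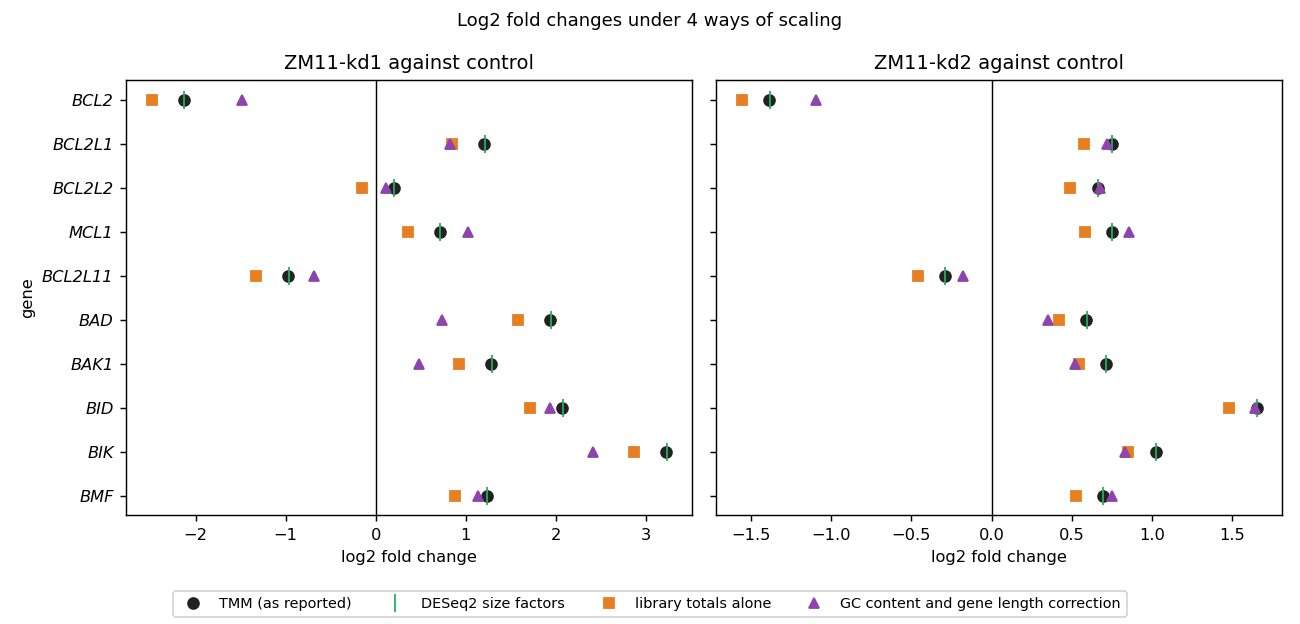
Log2 fold change against control (x axis, each panel with its own range) of the 10 members under TMM, DESeq2 size factors, library totals alone and a fit corrected for GC and length. TMM and DESeq2 size factors lie on each other, and the other markers spread most for BAD in ZM11-kd1, from 0.74 to 1.94, while BCL2L2 in ZM11-kd1 crosses 0.

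Levels of different genes were compared per length, as normalized CPM per 1000 bases of exon (RPKM). MCL1 ranked first and BCL2 last of the 10 in all 3 groups. MCL1 was at 69.9 ± 0.187 RPKM (SD, n = 2) in the control libraries, 114.4 ± 1.40 (SD, n = 2) in ZM11-kd1 and 117.7 ± 2.96 (SD, n = 2) in ZM11-kd2. BCL2 was at 1.33 ± 0.0465 (SD, n = 2), 0.303 ± 0.00300 (SD, n = 2) and 0.508 ± 0.0185 (SD, n = 2). In control cells the order in RPKM after MCL1 was BCL2L2 (12.1), BAK1 (8.76), BMF (7.71), BIK (6.48), BCL2L1 (5.80), BCL2L11 (3.29), BAD (2.38), BID (1.96) and BCL2. No neighbours in that order overlapped between libraries.

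BIK moved from rank 5 in control cells to 2 in ZM11-kd1, and BCL2L2 as far the other way, from 2 to 5. BIK there reached 60.7 ± 1.57 RPKM (SD, n = 2), and it ranked 4 in ZM11-kd2 at 13.2 ± 1.46 (SD, n = 2). BCL2L11 went from rank 7 in control cells to 9 in both knockdowns. BCL2L2 (13.9) and BCL2L1 (13.4) overlapped in ZM11-kd1, as did BAK1 (14.4) with BIK and BIK with BMF (12.5) in ZM11-kd2, so their order there is not settled. With the length of the MANE transcript, an alternative chosen after the data were seen, MCL1 stayed first, BCL2 last and BIK second in ZM11-kd1, but the middle of the order changed.

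The 10 genes summed to 119.7 ± 0.487 RPKM (SD, n = 2) in the control libraries, 261.2 ± 2.74 (SD, n = 2) in ZM11-kd1 and 199.5 ± 0.663 (SD, n = 2) in ZM11-kd2. The 4 anti-apoptotic members went from 89.1 ± 0.281 (SD, n = 2) to 142.0 ± 0.615 (SD, n = 2) and 147.1 ± 2.82 (SD, n = 2). The 6 pro-apoptotic members went from 30.6 ± 0.206 (SD, n = 2) to 119.2 ± 3.36 (SD, n = 2) in ZM11-kd1 and to 52.4 ± 2.16 (SD, n = 2) in ZM11-kd2. These sums are descriptions without a test, and they depend on which genes were listed. BAX and BBC3 are not among the 10 genes. PMAIP1, another BCL2 family gene left out of the sums, was picked here after its values were seen. It was at 15.3 RPKM in control cells, above each pro-apoptotic member there, 22.0 in ZM11-kd1 and 14.8 in ZM11-kd2.

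The anti-apoptotic share of the sum was 74.5% ± 0.0682 (SD, n = 2) in the control libraries, 54.4% ± 0.806 (SD, n = 2) in ZM11-kd1 and 73.7% ± 1.17 (SD, n = 2) in ZM11-kd2. ZM11-kd1 stood apart from the other groups, while the control libraries (74.5% and 74.4%) lay within the range of those of ZM11-kd2 (72.9% and 74.6%). BIK went from 5.41% of the sum in control cells to 23.2% in ZM11-kd1. MCL1 went from 58.4% to 43.8% although its own level was higher, since the sum grew more. Most of the anti-apoptotic share in each group thus rests on MCL1, whose value is uncertain. BAK1 (7.32%, 8.15% and 7.20%) and BMF (6.44%, 6.95% and 6.25%) kept nearly the same share in control, ZM11-kd1 and ZM11-kd2 cells.

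Among the 3 anti-apoptotic members other than MCL1, whose value is uncertain, BCL2 held 6.90% ± 0.208 (SD, n = 2) in the control libraries, 1.10% ± 0.0203 (SD, n = 2) in ZM11-kd1 and 1.73% ± 0.0550 (SD, n = 2) in ZM11-kd2. BCL2L1 held 30.1%, 48.5% and 33.2%, and BCL2L2 held 62.9%, 50.4% and 65.1%. By RNA per length, then, BCL2 was the smallest part of this trio in every group.

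**Figure D4:**
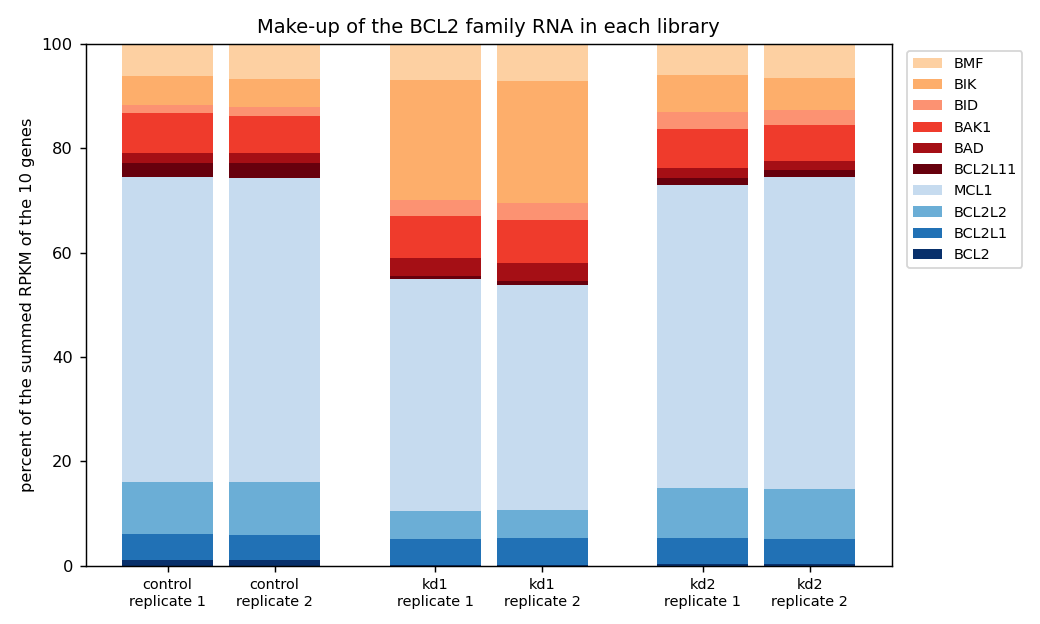
Share of each member in the summed RPKM of the 10 genes (y axis, percent), with 1 bar per library, anti-apoptotic genes in blue at the bottom and pro-apoptotic genes in red and orange on top. The blue part takes 74.5% and 74.4% in the control libraries, 55.0% and 53.8% in kd1, where BIK widens, and 72.9% and 74.6% in kd2. Most of the blue part is MCL1, whose value is uncertain.

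Other genes of the pathway were counted in 3 lists, in which 46 genes could be tested. Of these, 41 were called in ZM11-kd1 and 36 in ZM11-kd2, where 78% and 73.4% of all genes tested were called. The background for each list is all genes tested, of which 38.2% were higher and 39.8% lower in ZM11-kd1. In ZM11-kd2 these shares were 36.5% and 36.9%. Of 9 further BCL2 family genes, 8 could be tested, and BCL2A1 was too low. In ZM11-kd1, 4 rose and 2 fell, with a median of 0.29, and in ZM11-kd2, 2 rose and 3 fell, with a median of -0.36. HRK, a BH3-only gene known from neurons, rose in both, from 7.03 and 6.83 CPM in the control libraries to 20.9 and 21.6 in ZM11-kd1 and 16.6 and 19.2 in ZM11-kd2. Its log2 fold change was 1.61 (SE 0.111, adjusted p = 4.64e-09, edgeR) and 1.37 (SE 0.111, adjusted p = 4.62e-08, edgeR).

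Downstream of the mitochondrion, the list of 19 apoptosome, caspase and IAP genes was split. In ZM11-kd1, 9 were higher and 8 lower (median 0.04, background 38.2% and 39.8%). In ZM11-kd2, 8 were higher and 6 lower (median 0.03, background 36.5% and 36.9%). APAF1, which cytochrome c assembles into the apoptosome that activates caspase-9, fell in both. It was at 29.2 and 26.5 CPM in the control libraries, 4.33 and 4.22 in ZM11-kd1 and 9.71 and 13.5 in ZM11-kd2. APAF1 had a log2 fold change of -2.70 (SE 0.150, adjusted p = 4.39e-10, edgeR) in ZM11-kd1 and -1.26 (SE 0.131, adjusted p = 6.50e-07, edgeR) in ZM11-kd2. APAF1 was thus higher in ZM11-kd2 than in ZM11-kd1, by 1.44 (SE 0.158, adjusted p = 1.39e-06, edgeR), as BCL2 and BCL2L11 were.

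The third list held 19 genes that act on BCL2 family proteins. Of these, 13 were higher and 5 lower in ZM11-kd1 (median 0.27, background 38.2% and 39.8%). In ZM11-kd2, 14 were higher and 3 lower (median 0.61, background 36.5% and 36.9%). DYNLL2, the dynein light chain that holds BMF, rose alike in both knockdowns, from 107 and 105 CPM in the control libraries to 264 and 274 in ZM11-kd1 and 266 and 265 in ZM11-kd2. Its log2 fold change was 1.34 (SE 0.0516, adjusted p = 9.76e-12, edgeR) and 1.32 (SE 0.0515, adjusted p = 2.05e-11, edgeR). YWHAG, a 14-3-3 protein, moved in opposite directions, with 388 and 387 CPM in the control libraries, 200.3 and 185 in ZM11-kd1 and 636 and 688 in ZM11-kd2. For YWHAG, the log2 fold change was -1.01 (SE 0.0578, adjusted p = 6.37e-10, edgeR) in ZM11-kd1 and 0.77 (SE 0.0568, adjusted p = 1.56e-08, edgeR) in ZM11-kd2, and the difference of 1.78 between the knockdowns passed the test (SE 0.0585, adjusted p = 1.14e-11, edgeR).

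Some further genes of these lists were chosen after their values were seen, because their products act on a particular member. Of 7 genes for 14-3-3 proteins, which hold BAD, 5 rose and 1 fell in ZM11-kd1 and 7 rose in ZM11-kd2 (38.2% and 36.5% of all genes rose), although YWHAH and SFN in ZM11-kd1 turned in sign under another scaling, reaching -0.20 and -0.09. YWHAE was not called in ZM11-kd1 (0.03), where it turned negative under 5 of 14 alternatives and was called lower with library totals alone (-0.33). YWHAZ rose in both, by 1.15 and 0.90. The 3 kinases of BAD were mixed, as PIM2 rose by 1.48 and 0.97, AKT1 had log2 fold changes of -0.81 and -0.11, the latter not called, and PIM1 had 0.25 and -1.19. AKT1 in ZM11-kd2 was called lower without replicate 2 of that group (-0.21) and with library totals alone (-0.28), and higher after the GC and length correction (0.16). DYNLL1, the light chain that holds BCL2L11, rose by 1.63 in ZM11-kd1 and by 0.27 in ZM11-kd2, where it was lost with 2 alternatives. VDAC2, the mitochondrial channel that binds BAK1, rose by 1.36 and 0.86. Of 4 enzymes that add ubiquitin to MCL1 or remove it, the ligase HUWE1 had -1.34 and -0.80, the ligases FBXW7 (0.27 and 0.70) and BTRC (0.25 and 1.078) were higher, and the deubiquitinase USP9X had -1.01 and -0.12, the latter not called. After the GC and length correction HUWE1 had -0.81 and -0.40 and USP9X -0.27 and 0.17, all called, while USP9X in ZM11-kd2 was called lower with library totals alone (-0.29), with at least 10 counts required in every library (-0.16) and without ZM11-kd2 replicate 2 (-0.17). PIM1, FBXW7 and BTRC turned negative in ZM11-kd1 with library totals alone. CASP8, the protease that cleaves BID, rose by 0.68 and 0.61, the first of which was 0.33 with library totals alone and 1.19 after the GC and length correction. Apart from the values given as not called, each of these log2 fold changes under TMM passed the test at an adjusted p under 0.05 (edgeR). The ZM11-kd1 calls of YWHAH, PIM1, FBXW7 and BTRC did not hold under every alternative with 1 library left out. After the GC and length correction, YWHAH (-0.20) and PIM1 (-0.21) were called lower in ZM11-kd1.

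**Figure D5:**
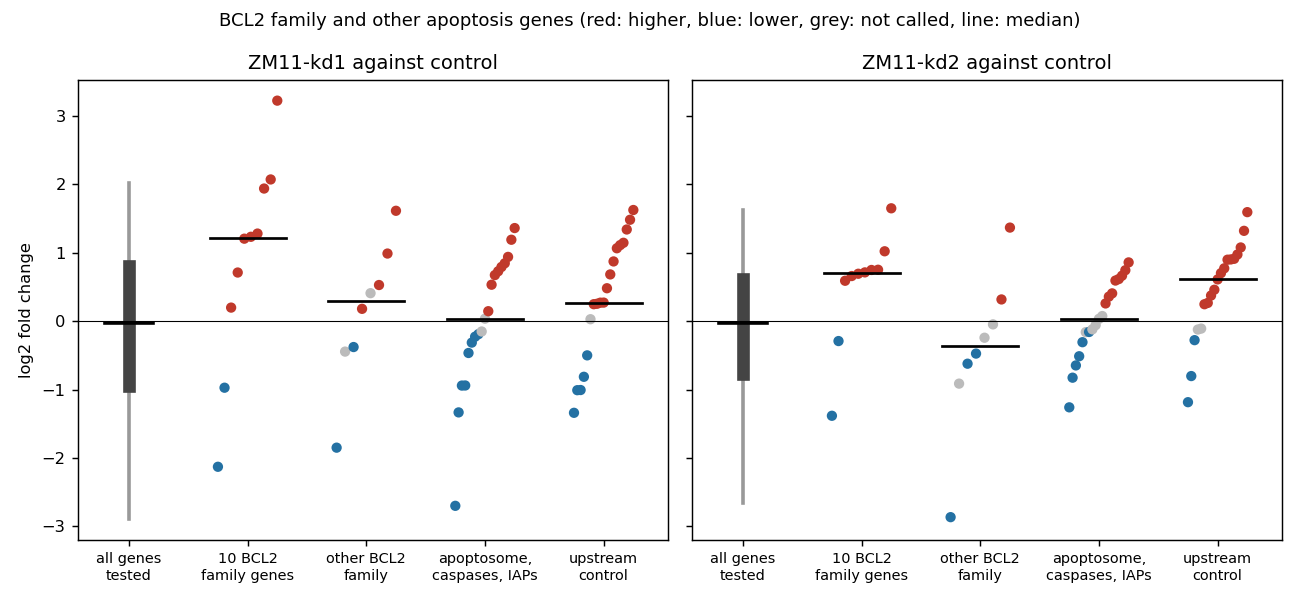
Log2 fold change against control (y axis) in ZM11-kd1 (left) and ZM11-kd2 (right) of the 10 members and of the 3 other apoptosis lists, with 1 point per gene tested, coloured by its call, and a line at the median. The bar for all genes tested spans the middle 50% (thick) and 90% (thin), and the medians of the 10 members, 1.22 and 0.70, lie above those of the other lists and of all genes.

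Promoter sequence was examined because 8 members rose together. RefSeq's table for GRCh38.p14 held the 250 bases before the start of BCL2, BCL2L1, BCL2L11, BAD, BAK1, BID and BMF, in 1 to 5 windows a gene. It held none for BCL2L2, MCL1 and BIK. The windows were searched on both strands for CACGTG (E-box), GTAAACA (FOXO) and GGGCGG (GC box), which do not overlap in their letters. The FOXO motif was found in the window of BCL2L11 alone, and 3.66% of the 27305 genes in the table hold it in at least 1 window. The E-box was found in 2 of 5 windows of BID, which overlap and hold the same site, and 7.73% of all genes hold it. The GC box was found for BCL2L11, BAD, BAK1, BID and BMF and not in the windows of BCL2 and BCL2L1, and 46.2% of all genes hold it. The less common matches are printed with the motif in capitals, 5′ to 3′ on the gene's strand.
BCL2L11: gagttactccgGTAAACAcgccagggacgg
BID: ttgtgtcctctcCACGTGgcctggggattc
The first lies at chr2:111120680-111120709 (plus strand), 216 to 223 bases before the start, and the second at chr22:17774072-17774101 (minus strand). BCL2L11 fell while BAD, BAK1, BID and BMF, which share the GC box with it, rose. Whether any of these motifs relates to the direction of change was not tested. A match describes the letters of the window and does not show that a factor binds there.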

How the data were processed

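RNA from 22Rv1 cells was sequenced in 6 libraries, 2 each of control, ZM11-kd1 and ZM11-kd2, which were grouped by their labels. The authors removed adapters and poor-quality bases with AdapterRemoval, aligned the reads to hg38 with STAR and sorted them with SAMtools. The submitters' processing notes name FastQC 0.11.9, STAR 2.7.9a and HTSeq 0.13.5. The authors deposited raw read counts for each gene symbol, without normalization. The annotation and strand setting of the counting are not given in the sources used here. Poly(A) selection and rRNA removal are both named in the study's methods, and which of them applied here is not stated. Library totals of 26844128 to 38193748 counts set the precision of low counts.

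In R 4.3.3, edgeR 4.0.16 was used to filter genes (filterByExpr), to scale libraries (TMM) and to run quasi-likelihood tests, with the 3 groups fitted at once (3 residual degrees of freedom). Benjamini-Hochberg adjustment ran over all 16510 genes tested. The p-values measure only the spread between libraries, which may be technical. The standard error of a log2 fold change is its size over the root of the F statistic. Normalized CPM are counts per 1000000 of the TMM-scaled total, and RPKM divide these by the summed exon length in GENCODE 44. Of the 35322 symbols, 32852 matched GENCODE 44 by name, 248 matched by a RefSeq synonym and 2222 did not match. Canonical coding sequences and BH3 cores were read from GRCh38 with GENCODE 44. Promoters came from RefSeq.

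The members and the gene lists were chosen with earlier results of these data known. The genes named were all 10 members, ZMYND11, and from the other lists those with calls of one direction in both knockdowns and a log2 fold change of at least 1 in size, or called in opposite directions in both with at least 1.5-fold. Genes named outside this rule are identified as such. Of the prostate epithelial markers examined, 2 are not reported here. The alternatives were DESeq2 size factors, library totals alone, a replicate block, DESeq2 1.42.0 with its Wald test, all genes without a filter, only genes of 10 or more counts in each library, a lowess correction (span 0.3) for GC content and gene length, only the groups compared, and each library left out in turn. The MANE transcript length, and the same alternatives for single genes other than the members, were added after the data were seen. Replicate numbers did not pair the libraries. The functions were tested on simulated data with far fewer changed genes than were called here. That run cannot show whether the scaling suits these libraries. Python 3.11.15 with matplotlib 3.10.9 was used for sequence work and figures.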

Additional observations from a re-analysis of the deposited data

Results flagged for a closer look

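The effects of the 2 knockdowns differed for 9 of the 10 members by the test of ZM11-kd2 against ZM11-kd1, as log2 differences with their adjusted p (edgeR). BIK (-2.20, adjusted p = 5.90e-11), BAD (-1.35, adjusted p = 2.88e-07), BAK1 (-0.57, adjusted p = 9.03e-06), BMF (-0.54, adjusted p = 4.43e-06), BCL2L1 (-0.46, adjusted p = 3.26e-05) and BID (-0.42, adjusted p = 0.000315) were lower in ZM11-kd2. BCL2 (0.75, adjusted p = 0.000211), BCL2L11 (0.68, adjusted p = 2.11e-05) and BCL2L2 (0.46, adjusted p = 4.49e-06) were higher. In each of these 9 genes both ZM11-kd2 libraries lay on one side of both ZM11-kd1 libraries, as in 83.1% of all genes tested. Of all genes tested, 34.9% were higher and 33.8% lower by the same test, so a difference between the knockdowns was common in this series. The 2 knockdowns were separate cell populations, and why they differed was not tested.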

How the results depend on the processing

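The number of members called was 9 or 10 of 10 against control, and 8 to 10 between the knockdowns, under every alternative. Of 420 values of single members under an alternative, 409 kept their direction and side of the threshold, 7 kept the direction but lost the call, 1 gained a call and 3 turned in direction. The 3 were BCL2L2 in ZM11-kd1 with library totals alone (-0.16) and, between the knockdowns after the GC and length correction, MCL1 (-0.17) and BAK1 (0.036). With at least 1.5-fold required, the members higher in ZM11-kd2 were 8 under TMM, 2 with library totals alone and 6 after the GC and length correction. Calls were lost for BCL2L2 in ZM11-kd1 and BCL2L11 in ZM11-kd2 with that correction or with 1 library left out, and for BCL2L1 between the knockdowns with that correction. With the MANE transcript length the anti-apoptotic share of summed RPKM was 78.9% in control cells, 61.4% in ZM11-kd1 and 77.9% in ZM11-kd2. Of the 46 other apoptosis genes tested, 41 were called in ZM11-kd1 and 36 in ZM11-kd2 (78% and 73.4% of all genes), with library totals alone giving 20 higher and 20 lower in ZM11-kd1 against 26 and 15. Of the partner genes in ZM11-kd1, YWHAH (-0.083), PIM1 (-0.10), FBXW7 (-0.084) and BTRC (-0.11) turned negative with library totals alone, and YWHAH (-0.20), SFN (-0.088) and PIM1 (-0.21) after the GC and length correction. With that correction YWHAH and PIM1 were called lower. The ZM11-kd1 calls of YWHAH, PIM1, FBXW7 and BTRC were also not all kept with 1 library left out. YWHAE in ZM11-kd1, not called under TMM, turned negative with library totals alone (-0.33), with at least 10 counts in every library (-0.015), after the GC and length correction (-0.048) and without 1 control or ZM11-kd1 library (-0.0045 and -0.0097, in a range from -0.0097 to 0.071 with 1 library left out). In ZM11-kd2, AKT1 (0.16) and USP9X (0.17) turned positive after that correction. The cause of these moves was not tested.

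Deviations of libraries with the same replicate number were not correlated (0.0062, -0.026 and -0.044), so the numbers do not pair them. With a replicate block, 10, 10 and 9 members were called in ZM11-kd1, in ZM11-kd2 and between the knockdowns, and no call of a member changed. With 2 libraries a group, of unstated origin, the spread between cultures is not known. MCL1 could not be separated from ADAMTSL4-AS1, nor BAD from GPR137 or BCL2L2 from HOMEZ and PPP1R3E where they share exons.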
